A study of Mus musculus with 96 samples.

Results

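The 10 myeloid genes described here were followed through the early steps of red cell formation in the mouse fetal liver. They were 4 genes of primary granules (Mpo, Elane, Prtn3 and Ctsg), 3 transcription factors (Spi1, Cebpa and Irf8), 2 growth factor receptors (Csf1r and Csf3r) and Plac8, a gene of early myeloid and lymphoid progenitors. All 10 were found by symbol among the 49466 gene rows of the read count table. The counts came from Smart-seq2, which makes full-length cDNA from single cells, on 1 plate of 96 wells. Each well held 1 cell from the liver of C57/Bl6J embryos at day 14.5.

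Every cell, whichever its gate, had passed the same depletion with antibodies to lineage proteins and to Sca-1, CD16/32 and CD41, and was then sorted on Kit, CD71 and CD24. The gates, of 24 wells each, were BFUE (burst-forming units, the earliest committed red cell progenitors), a lower intermediate gate at 25 to 35% of CD71/CD24, an upper intermediate gate at 50 to 60%, and CFUE (colony-forming units, the later progenitors). The labels name no transgene or treatment. They also do not say which embryos the cells came from, so a gate counts as 1 sample, differences between gates had no replicate check, and no test was made. A gate took up 3 columns of the plate, and effects of the 2 cannot be told apart. After leaving out 5 wells with under 50000 reads, 23 BFUE, 21 lower intermediate, 24 upper intermediate and 23 CFUE cells remained, with 947458 to 3785903 reads in genes each. Added up, the cells held 38184231 reads in BFUE, 31059327 in the lower and 36422769 in the upper intermediate gate, and 35454299 in CFUE. Levels are given as CPM (counts per 1e6), the share of the reads of the cell or of the summed gate. Intervals are exact 95% intervals and cover counting error only, since reads without molecular identifiers are not independent molecules.

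Blood progenitors that leave the stem cell state can take an erythroid or a myeloid path. Granulocyte and monocyte progenitors make the enzymes of the primary (azurophil) granules, namely myeloperoxidase from Mpo and the serine proteases neutrophil elastase, proteinase 3 and cathepsin G from Elane, Prtn3 and Ctsg. Their genes are switched on under PU.1 (encoded by Spi1) and C/EBPα (encoded by Cebpa), while Irf8 directs the monocyte and dendritic cell branch. Gata1 is the central factor of the erythroid path, and the Gata1 and PU.1 proteins bind and restrain each other. Cd34 marks early progenitors and is lost along the erythroid path.

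The promoters of the granule genes are shown first, because these genes lay close in function yet differed widely in reads below. The RefSeq table (build GRCm38.p6) held promoters of 8 of the 10 members, and Spi1 and Csf1r were missing from it. Each sequence runs 5′ to 3′ on the strand of the gene, from 250 bases before its start to 50 after. Capitals mark GAGGAA, a purine-rich core of the kind that PU.1 binds. The Mpo promoter lies at chr11:87793534-87793833 on the plus strand, that of Elane at chr10:79886062-79886361 (plus), that of Prtn3 at chr10:79879417-79879716 (plus) and that of Ctsg at chr14:56102525-56102824 (minus).
Mpo: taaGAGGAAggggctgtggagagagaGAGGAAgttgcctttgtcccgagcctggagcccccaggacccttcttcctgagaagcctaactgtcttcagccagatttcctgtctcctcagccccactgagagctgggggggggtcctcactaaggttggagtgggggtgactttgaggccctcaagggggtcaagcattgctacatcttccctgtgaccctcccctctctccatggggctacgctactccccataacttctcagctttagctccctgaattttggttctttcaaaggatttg
Elane: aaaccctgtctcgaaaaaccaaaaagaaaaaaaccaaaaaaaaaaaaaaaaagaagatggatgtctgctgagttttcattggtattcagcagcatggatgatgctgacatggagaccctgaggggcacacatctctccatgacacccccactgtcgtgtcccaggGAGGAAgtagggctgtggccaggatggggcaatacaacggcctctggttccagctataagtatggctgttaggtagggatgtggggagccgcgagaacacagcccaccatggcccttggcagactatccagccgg
Prtn3: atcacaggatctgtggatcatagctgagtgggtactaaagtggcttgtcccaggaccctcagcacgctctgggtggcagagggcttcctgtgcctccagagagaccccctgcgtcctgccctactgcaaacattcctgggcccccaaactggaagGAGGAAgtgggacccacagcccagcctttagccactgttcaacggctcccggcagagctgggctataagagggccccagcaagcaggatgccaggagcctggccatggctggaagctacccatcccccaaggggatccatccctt
Ctsg: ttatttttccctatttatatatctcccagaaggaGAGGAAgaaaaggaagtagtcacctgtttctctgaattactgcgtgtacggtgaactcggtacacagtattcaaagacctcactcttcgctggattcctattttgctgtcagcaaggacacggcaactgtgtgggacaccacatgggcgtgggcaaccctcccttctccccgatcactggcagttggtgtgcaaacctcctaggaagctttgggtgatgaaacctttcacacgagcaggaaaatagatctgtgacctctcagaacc

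All 4 granule promoters held GAGGAA in these windows, against 28.3% of the 32851 promoters of the same length in the table, with both strands searched. In Mpo it began 247 and 224 bases before the start, in Elane 85, in Prtn3 95 and in Ctsg 216 bases before it. Csf3r held it too, as did Plac8 in its promoter 1 but not in its promoter 2, which made 6 of the 8 members searched. That count is per gene, with any promoter of the gene counting, while the 28.3% is per promoter. TAACNG, a Myb-like motif, was in 2 of the 4 (Mpo and Elane) and in 23.3% of all promoters. TGTGGT, a Runx-like motif, was in 1 (Ctsg) and in 16.8% of all, and TTNCNNAA, a C/EBP-like motif, in 0 of the 4 and in 40.7% of all. No 2 of these matches overlapped in the granule promoters. A match is a description of these letters and does not show that a factor binds there.

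In the gates as a whole, the reads of these genes were nearly all in BFUE. Mpo was at 751 CPM in BFUE (interval 743 to 760), 1.84 in the lower intermediate gate, 0.631 in the upper one and 1.72 in CFUE. Plac8 followed the same course, at 119, 0.708, 0.165 and 0.113 CPM from BFUE to CFUE. Spi1 was at 101, 4.73, 2.14 and 1.75 CPM, and Prtn3 at 69.95, 5.99, 1.65 and 1.35 CPM. In the lower intermediate gate Spi1 and Prtn3 were at a larger share of their BFUE level than Mpo and Plac8, but for Plac8 this order did not hold without the Cd34-high cells described below.

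The receptors and Irf8 were lower still in BFUE and close to 0 beyond it. Csf1r, the receptor of macrophage colony-stimulating factor, was at 29.9 CPM in BFUE, with 4, 3 and 0 reads in the lower intermediate, upper intermediate and CFUE gates. Csf3r, the receptor of granulocyte colony-stimulating factor, was at 21.5 CPM in BFUE, with 0, 2 and 2 reads beyond. Irf8 was at 18.7 CPM in BFUE, with 2, 1 and 2 reads beyond. Ctsg had 63 reads in BFUE (1.65 CPM), 1 in the lower intermediate gate, 20 in the upper one and 1 in CFUE. Cebpa had 51 reads in BFUE (1.34 CPM) and 0 in every later gate. Elane had 0 reads in BFUE and 1 read, in the lower intermediate gate, over all 91 kept cells, where 3 reads would make 0.0213 CPM.

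Set against BFUE, Mpo was 437-fold lower in CFUE (interval 340 to 571), Plac8 1059-fold lower (413 to 3887), Spi1 57.7-fold lower (44.9 to 75.4) and Prtn3 51.7-fold lower (38.9 to 70.3). Csf3r was 382-fold lower (105 to 3156) and Irf8 332-fold lower (91.6 to 2746), each on 2 CFUE reads. Without the BFUE cell of well F1, which held the most reads of each, these became 252-fold and 177-fold. Csf1r, with 0 reads in CFUE, was at least 353-fold lower, taking 3 reads over the gate as the floor, and at least 189-fold without F1. Already in the lower intermediate gate Mpo was 409-fold lower than in BFUE (316 to 541), against 11.7-fold for Prtn3 (10.1 to 13.6) and 21.3-fold for Spi1 (18.1 to 25.3). In the upper intermediate gate, set against the lower one, Prtn3 was 3.64-fold lower (2.70 to 4.95), Mpo 2.91-fold (1.76 to 4.94) and Spi1 2.21-fold (1.67 to 2.95). The single well G4 held 70 of the 147 Spi1 reads of the lower intermediate gate, and without it Spi1 was 1.23-fold lower, under the 1.5-fold limit. The well F4 held 76 of the 186 Prtn3 reads, and without it Prtn3 was 2.27-fold lower. Mpo had 61 reads in CFUE and 23 in the upper intermediate gate, and 33 of the 61 were in the single CFUE well C10.

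The 7 members at 10 CPM or more in BFUE were all at least 1.5-fold lower in CFUE, where 29.6% of the 8701 genes at that level in either gate were. In the lower intermediate gate the same 7 were lower, against 24.3% of 8605 genes, and in the upper one too, against 26.8% of 8651. None of the 10 members reached 10 CPM in a later gate, so those 7 entered through BFUE alone and had to be lower, and these counts are a description only. Their median log2 ratio of CFUE to BFUE was -8.46, and that of all measured genes -0.14. Between the upper and the lower intermediate gate, and between CFUE and the upper one, 0 members reached 10 CPM in either gate and none was called, where 9.27% of 7807 and 9.7% of 7743 genes were called lower and 7.34% and 7.98% higher.

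**Figure D1:**
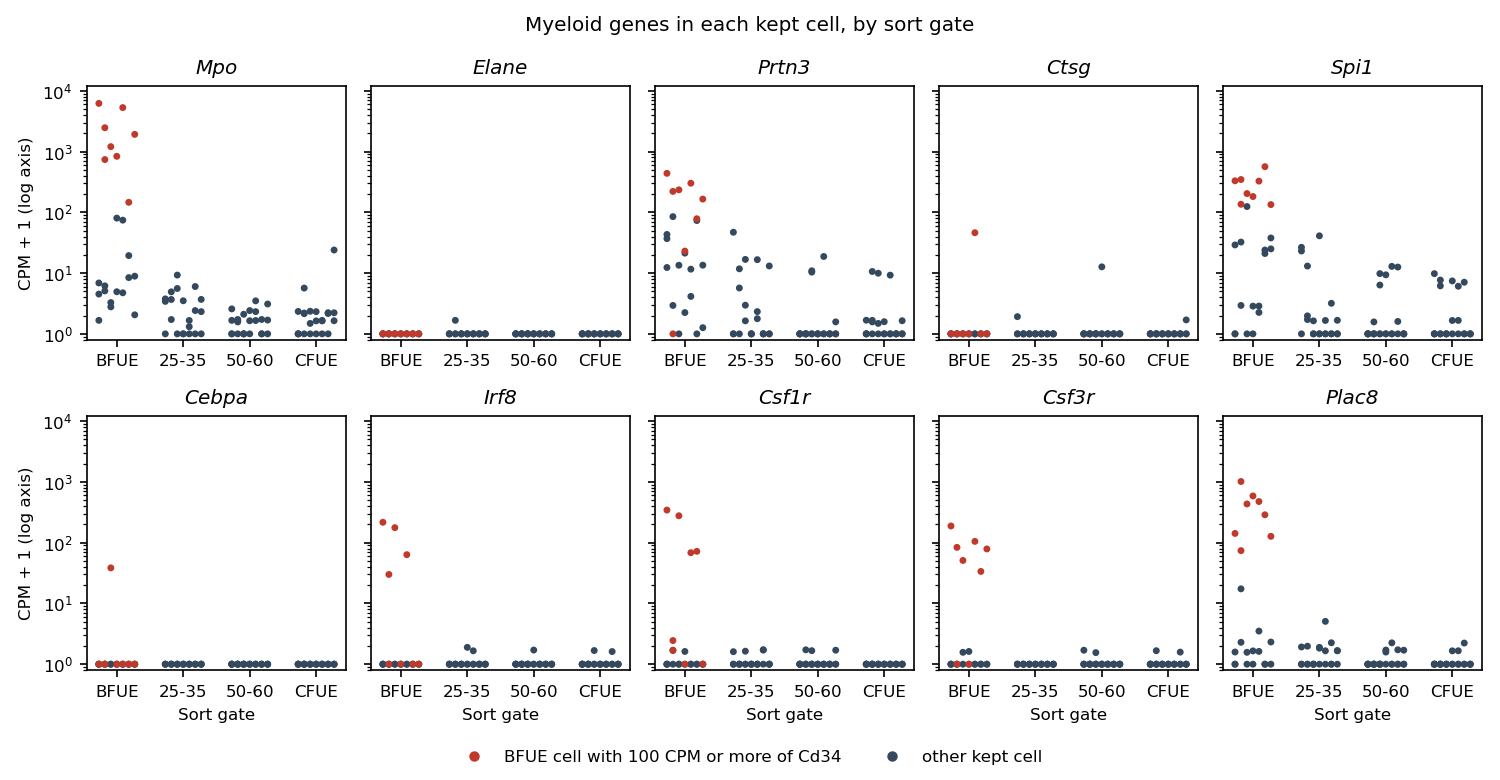
Level of each of the 10 members in each of the 91 kept cells (points, CPM plus 1 on a log axis) by sort gate, in order of stage. Red points are the 8 BFUE cells in which Cd34 reached 100 CPM, and points at 1 are cells with 0 reads. Mpo, Spi1 and Plac8 were high in all 8 red cells, Irf8, Csf1r and Csf3r in some of them, and Elane in none.

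The BFUE reads did not come evenly from its 23 cells. Cd34 stood at 1036 to 2202 CPM in 8 of them and at 0 to 5.16 CPM in the other 15, with none between. The 8 are called Cd34-high below, a division taken at 100 CPM with the earlier result known, and made without any of the 10 members. All 23 cells carry the BFUE label. Both sets were of like depth, with a median of 1461694 reads and 9226 genes per Cd34-high cell, against 1594700 reads and 9567 genes per other BFUE cell.

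Mpo ranged from 145 to 6209 CPM in the Cd34-high cells (median 1561), while the other BFUE cells had 0.669 to 79.3 CPM (median 4.10). Plac8 ranged from 72.9 to 1014 CPM (median 360), against 0 to 16.4 CPM (median 0.569). Spi1 ranged from 133 to 563 CPM (median 264), against 0 to 124 CPM (median 1.94). For these 3, of the 7 members at 10 CPM or more in BFUE, the lowest Cd34-high cell stood above the highest other BFUE cell. That held for 0.804% of the 8329 genes at that level. Plac8 reached the level only through the Cd34-high cells, so the count of 3 is a description.

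Prtn3 was different. It ranged from 0 to 437 CPM in the Cd34-high cells (median 192), while the other BFUE cells had 0 to 83.96 CPM (median 11.4), and the sets overlapped. It had 10 or more reads in 7 of 8 Cd34-high cells (exact interval 47.3 to 99.7%), 9 of 15 other BFUE cells (32.3 to 83.7%) and 11 of 68 later cells (8.36 to 27.1%). With each cell thinned to 500000 reads these became 7, 5 and 1 cells. Cells with and without Cd34 thus both held Prtn3 reads, at levels that mostly differed.

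Irf8, Csf1r and Csf3r each sat in a part of the Cd34-high cells. Irf8 had 10 or more reads in 4 of the 8, Csf1r in 4 and Csf3r in 6, and each in 0 of the 15 other BFUE cells and 0 of the 68 later cells, which allows up to 21.8% and 5.28% of cells. Among the other BFUE cells, the highest value was 0 CPM for Irf8, 0.683 for Csf1r and 0.620 for Csf3r. Of the BFUE CPM of the 10 members, the Cd34-high cells held 98.9% for Mpo, 99.2% for Plac8, 99.8% each for Csf1r and Csf3r, 100% for Irf8, Ctsg and Cebpa, 88.3% for Spi1 and 82.5% for Prtn3. A share of 90% or more was found for 5 of the 7 members at 10 CPM or more in BFUE, and for 2.76% of all 8329 genes at that level. Irf8, Csf1r, Csf3r and Plac8 reached 10 CPM in BFUE only through these cells, so the count of 5 is a description. In more than 4 of the 8 Cd34-high cells, 5 of the 10 members (Mpo, Prtn3, Spi1, Csf3r and Plac8) had 10 or more reads, as did 28.2% of the 20731 genes read in any kept cell.

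Elane, Ctsg and Cebpa were each read in at most 1 Cd34-high cell. Elane had 0 reads in all 8 Cd34-high cells, which hold 11974810 reads together, so that 3 reads would make 0.251 CPM (0 of 8 cells allows up to 36.9% of such cells). Ctsg had its 63 reads in the single cell of well C2, at 45.2 CPM. Cebpa likewise had its 51 reads in 1 cell, that of well B2, at 37.5 CPM. Elane and Prtn3 are neighbours on chromosome 10 (GRCm38), with Prtn3 at 79874476 to 79883174 and Elane at 79886247 to 79888215 on the same strand, 3072 bases apart. One was thus read in 20 of 23 BFUE cells and the other in 0.

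**Figure D2:**
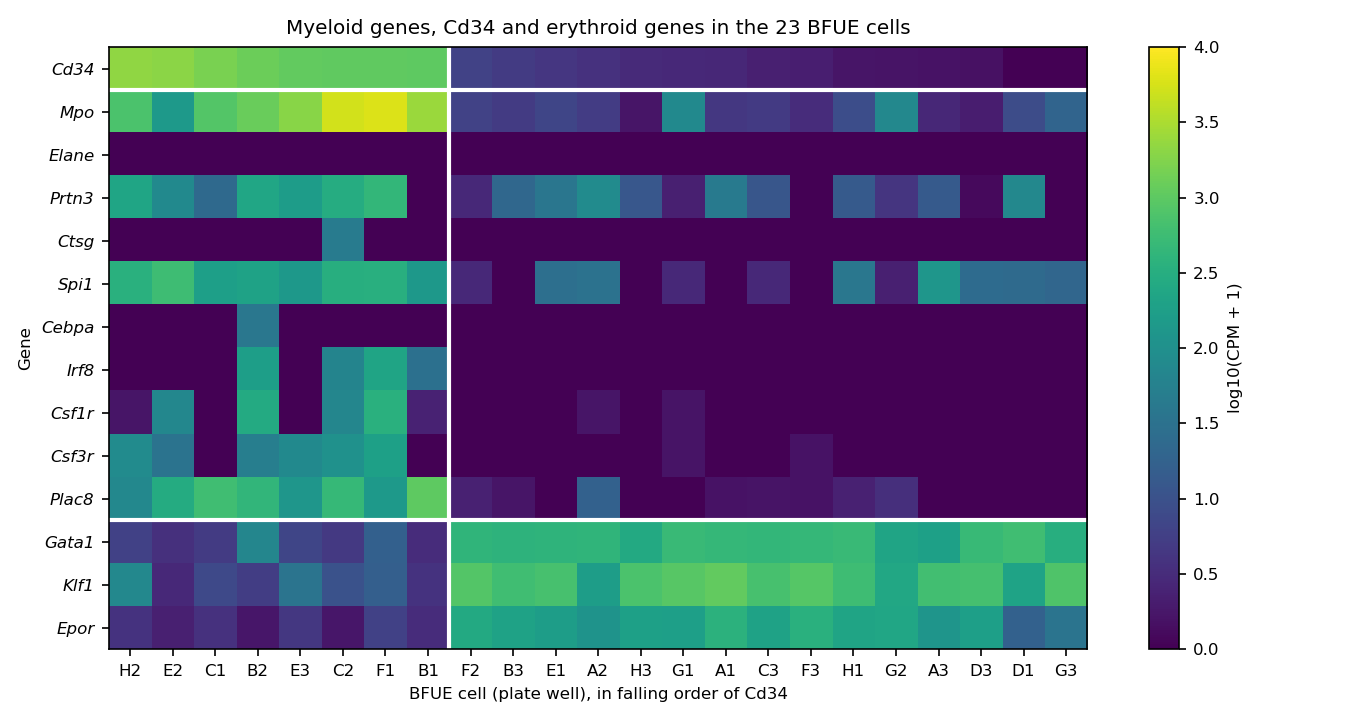
Level of the 10 members, of Cd34 above them and of the erythroid genes Gata1, Klf1 and Epor below them, as colour (log10 of CPM plus 1), in each of the 23 BFUE cells named by plate well and set in falling order of Cd34. The white vertical line parts the 8 Cd34-high cells, where Gata1 was at 2.17 to 66.9 CPM, from the other 15, where it was at 189 to 583 CPM.

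Cell by cell, the Cd34-high cells carried 4 to 8 of the members at 10 or more reads. The cell of well F1 had the most Mpo (6209 CPM) and the most Prtn3 (437 CPM), Irf8 (216 CPM), Csf1r (343 CPM) and Csf3r (187 CPM). The cell of C2 came next for Mpo at 5296 CPM, with Prtn3 at 301, Irf8 at 62.4, Csf1r at 67.4 and Csf3r at 104 CPM, and it alone held Ctsg. These 2 cells therefore read both the monocyte factor Irf8 and the granulocyte receptor Csf3r.

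The cell of B2 had Mpo at 1204 CPM beside Cebpa, Irf8 (176 CPM), Csf1r (276 CPM) and Csf3r (50.0 CPM), and also the highest Gata1 of the 8, at 66.9 CPM. In the cell of B1, Mpo was at 2467 CPM and Plac8 at its highest, 1014 CPM, with Irf8 at 28.99 CPM but Prtn3 and Csf3r at 0 reads. The cell of C1 was much like B1 in having Plac8 at 586 CPM and Csf3r at 0, with Mpo at 835 and Prtn3 at 22.04 CPM. No Irf8 was read in C1.

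The cells of E3 and H2 had Mpo at 1918 and 738 CPM, with Prtn3 at 164 and 220 CPM and Csf3r at 77.8 and 82.7 CPM. Both had 0 reads of Irf8 and at most 1 read of Csf1r. The cell of E2 had the least Mpo of the 8, at 145 CPM, with the most Spi1, at 563 CPM, and with Csf1r at 71.03 and Csf3r at 32.6 CPM. Spi1 itself varied the least among the 8 of the members read in all of them, between 133 CPM in E3 and 563 CPM in E2.

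Against Cd34, Mpo ran in nearly the opposite order within the 8 cells. The 4 cells with the least Cd34 (1036 to 1108 CPM, wells B1, F1, C2 and E3) had Mpo at 1918 to 6209 CPM. The 4 with the most (1262 to 2202 CPM, wells B2, C1, E2 and H2) had it at 145 to 1204 CPM. Spearman's rho between Mpo and Cd34 was -0.90 over these 8 cells, and Pearson's r of log2(CPM + 10) was -0.84. Between Prtn3 and Csf3r rho was 0.92 (r 0.95). Of 20 pairs computed, these 2 are named because of their values, and the 8 cells share 1 plate and 1 sort.

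The 2 sets were also apart in Gata1. It was at 2.17 to 66.9 CPM in the Cd34-high cells, and at 189 to 583 CPM in the 15 others. Within the 8, rho with Gata1 was 0.17 for Mpo, 0.64 for Prtn3, 0.49 for Csf3r, -0.05 for Spi1 and -0.52 for Plac8. Pearson's r of log2(CPM + 10) was, in the same order, 0.14, 0.44, 0.30, -0.10 and -0.03. Gata1 had 10 or more reads in only 3 of the 8 cells, so most of these ranks rest on few reads. No pooled value is given, since the cells fall into separate clusters. Klf1, a factor of the red cell program, was at 1.92 to 71.5 CPM in the Cd34-high cells, against 167 to 1094 CPM in the others, and Epor, the erythropoietin receptor, at 0.717 to 4.94 CPM against 16.2 to 365 CPM.

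**Figure D3:**
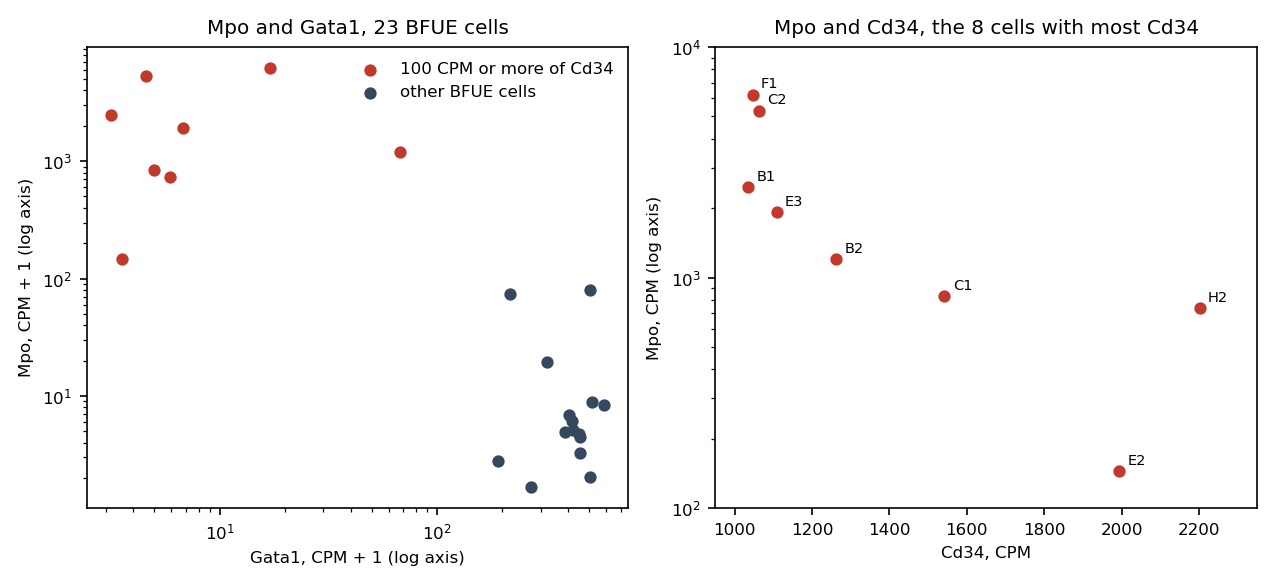
Left, Mpo against Gata1 (CPM plus 1, both axes log) in the 23 BFUE cells, with the 8 Cd34-high cells in red. Right, Mpo (CPM, log axis) against Cd34 (CPM) in those 8 cells, named by plate well. The Cd34-high cells lie at 145 CPM of Mpo or more and at 66.9 CPM of Gata1 or less, and every other cell at 79.3 CPM of Mpo or less and at 189 CPM of Gata1 or more.

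Some members were read in Gata1-positive BFUE cells too. Mpo stood at 79.3 CPM in the cell of G1 and 73.4 CPM in that of G2, where Gata1 was at 504 and 216 CPM and Cd34 at 1.86 and 0.627 CPM. Spi1 stood at 124 CPM in the cell of A3, with Gata1 at 189 CPM. Prtn3 stood at 83.96 CPM in the cell of A2 and at 72.3 CPM in that of D1, with Gata1 at 419 and 583 CPM. The highest of these cells for Mpo, Spi1 and Prtn3 were thus different ones. Of the 15 other BFUE cells, none had more than 3 members at 10 or more reads, and 2 had 0.

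Per kilobase of annotated exon, which allows levels of different genes to be compared, Mpo stood first over the summed Cd34-high cells, at 691 CPM per kb. Plac8 (237), Prtn3 (106) and Spi1 (103 CPM per kb) followed, beside 193 CPM per kb for Cd34. Csf3r (18.97), Csf1r (16.5), Irf8 (8.46), Ctsg (5.09) and Cebpa (1.62 CPM per kb) were lower, and Gata1 was at 5.21. In single cells the ranges overlapped between neighbours, the first pair included. Mpo ran from 42.4 to 1813 CPM per kb and Plac8 from 45.8 to 637, and Plac8 stood above Mpo in the cells of C1 (368 beside 244 CPM per kb) and E2 (180.1 beside 42.4). Exons of Mpo, Prtn3, Cebpa and Csf1r share 512, 159, 51 and 873 bases with a gene on the opposite strand. The strand setting of the counting is not given in the sources used here, so reads there cannot be told apart.

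Without the Cd34-high cells, 3 of the 10 members were left at 10 CPM or more over the other 15 BFUE cells. They were Spi1 at 20.1 CPM (interval 18.4 to 21.9), Prtn3 at 18.05 CPM (16.5 to 19.7) and Mpo at 13.6 CPM (12.2 to 15.1). In CFUE, Prtn3 was then 13.3-fold lower than in these cells (9.89 to 18.3), Spi1 11.5-fold lower (8.83 to 15.2) and Mpo 7.89-fold lower (6.003 to 10.5). In the lower intermediate gate Mpo was 7.40-fold lower (5.58 to 9.97), Spi1 4.25-fold (3.53 to 5.14) and Prtn3 3.01-fold (2.54 to 3.59). Few cells carried much of these levels. The cells of G1 and G2 held 128 and 117 of the 356 Mpo reads of the 15 cells, and that of A3 held 208 of the 527 Spi1 reads. The cells of A2 and D1 held 123 and 107 of the 473 Prtn3 reads. In CFUE, well C10 held 33 of the 61 Mpo reads. Folds without these cells were not computed. All 3 genes were called lower in CFUE, where 24.9% of 8246 genes were, and in the lower intermediate gate, where 17.7% of 8163 were. The filter again fixed the direction for these 3, since none reached 10 CPM in a later gate, and the counts are a description. Plac8 was below 10 CPM in the other BFUE cells, at 1.37 CPM, and 1.94-fold lower than that in the lower intermediate gate (1.11 to 3.46).

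Low counts of some members in later gates differed between plate rows. Of the 8 plate rows, 5 held a Cd34-high cell. Mpo had a read in 78.6% of the 42 later-gate wells in those 5 rows, against 38.5% of the 26 in the other rows. Cd34 had a read in 54.8% against 19.2% of these wells, and Plac8 in 33.3% against 11.5%. Of the 14 Plac8 wells in those 5 rows, 9 were in row B, 4 in row C and 1 in row E, and rows F and H had 0. Mpo was read in 9 of 9 later-gate wells of row B, 7 of 8 of row C, 6 of 8 of row E, 8 of 9 of row F and 3 of 8 of row H. In row B, which holds the Cd34-high cells of B1 and B2, all 9 later-gate wells held Plac8, with 12 reads together, and all 9 held Mpo, with 24 reads.

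Prtn3 and Spi1 had other patterns over the rows. Prtn3 had a read in 30.95% of wells in the rows with a Cd34-high cell, against 38.5% elsewhere, and Spi1 in 40.5% against 30.8%. Their reads also came in larger numbers per well, up to 76 for Prtn3 (well F4) and 70 for Spi1 (well G4), both of the lower intermediate gate. Mpo reached 10 reads in 2 of 68 later cells, with 13 reads in F6 and 33 in C10, Ctsg 20 reads in D8, and Plac8 13 reads in G6. The part of shared plate rows in the low counts was not tested.

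**Figure D4:**
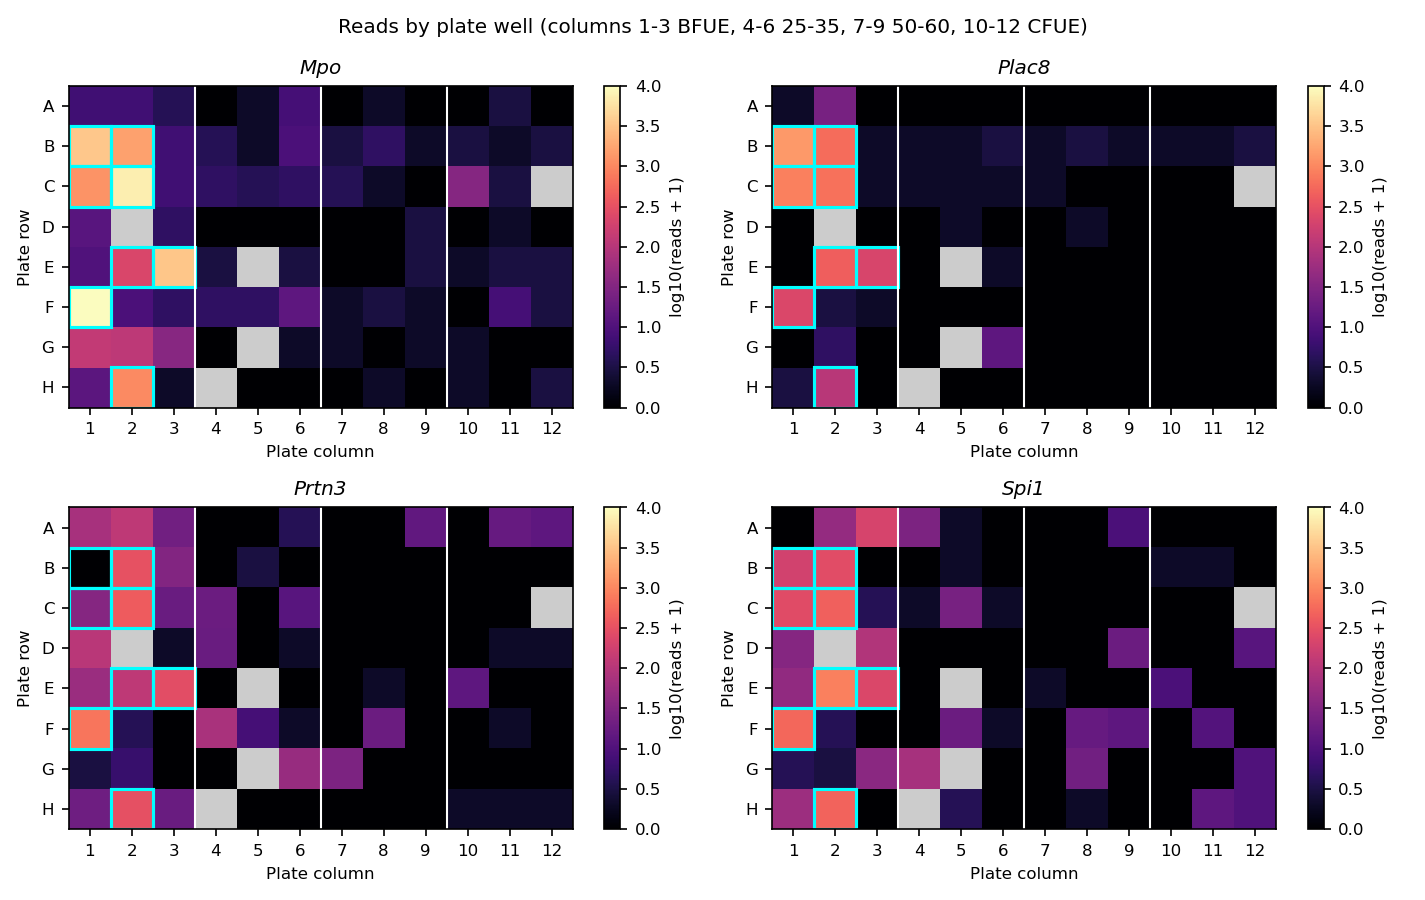
Reads of Mpo, Plac8, Prtn3 and Spi1 as colour (log10 of reads plus 1) in each kept well of the plate, by row A to H and column 1 to 12, with the 3 plate columns of each gate between white lines. Cyan frames mark the 8 Cd34-high BFUE cells and grey wells were left out. Row B shows Plac8 and Mpo in all 9 later wells, while Prtn3 and Spi1 are spread over the rows.

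Other genes of the myeloid program were read from lists chosen with earlier results known. Of 14 further genes of primary granules and early granulocytes, 11 reached 10 CPM in BFUE or CFUE, and 9 of these were lower in CFUE and none higher. Among all measured genes 29.6% were lower and 13.7% higher, and 7 of the 11 passed through BFUE alone. The median log2 ratio of the 11 was -3.83. Of the 11, 2 (Serpinb1a and Lyz2) had 90% or more of their BFUE CPM in the Cd34-high cells, as did 2.76% of all genes at 10 CPM or more in BFUE. These 2 reached that level mainly through the Cd34-high cells, which held 99.3 and 92.3% of their CPM, so this count is a description. Srgn, the proteoglycan core of granules, was at 280 CPM in BFUE and 50.8 CPM in CFUE, and was read in all 15 other BFUE cells. Igfbp4 was at 202 and 1.13 CPM, Ctsz, a cathepsin, at 192 and 187 CPM, and Serpinb1a, an inhibitor of neutrophil proteases, at 108 and 0.169 CPM. Ctsc, which activates the granule proteases, was at 106 and 48.1 CPM in the same gates.

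Genes of late granules and mature neutrophils were nearly silent. Of 12, 10 had 0 reads in BFUE, S100a8, S100a9, Camp, Ngp and Lcn2 among them, and 0 reached 10 CPM. The other 2 were Cxcr2, a chemokine receptor, at 108 CPM in the cell of C2, and Ltf, lactoferrin, at 69.1 CPM in that of B2. The C2 cell, which alone held Ctsg, was also the only Cd34-high cell with Ms4a3, at 14.3 CPM.

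Of 16 other myeloid transcription factors, 7 reached 10 CPM, 5 of them lower in CFUE and 0 higher, beside 29.6% and 13.7% of all measured genes, at a median of -2.44. Of the 7, 3 passed through BFUE alone. Ikzf1 was at 336 CPM in BFUE and 364 CPM in CFUE, Myb at 124 and 22.8 CPM, Runx1 at 81.7 and 19.8 CPM, and Zeb2 at 69.4 and 48.3 CPM. Cebpe, which drives late granule genes, had 0 reads in BFUE. Gfi1, a factor of the granulocyte branch, was at 60.99 CPM in the cell of H2 and at no more than 1.37 CPM in any other kept BFUE cell.

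Of 16 other myeloid receptors and surface genes, 6 reached 10 CPM and all 6 were lower in CFUE, at a median of -7.79, beside 29.6% of all measured genes. All 6 passed through BFUE alone, with at most 3.50 CPM in CFUE, so their direction was fixed. Tyrobp, a signalling adaptor, had 10 or more reads in 8 of 8 Cd34-high cells (64.1 to 694 CPM) and in 0 of 15 others. Csf2rb, the shared beta chain of the receptors for interleukin 3, interleukin 5 and GM-CSF, had them in 7 of 8 and 0 of 15. Fcer1g and Il6st were at 29.1 and 16.4 CPM in BFUE, with 91.9 and 69.7% of it in the Cd34-high cells.

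The genes of the proteins used for depletion were read in some of these cells. Ptprc, which encodes CD45 (CD45R is one of its forms), was the one read in all 8 Cd34-high cells at 10 or more reads, at 93.3 to 492 CPM (median 260), while the other BFUE cells had 0 to 134 CPM (median 0.624). Fcgr3, which encodes CD16, was at 145 CPM in C2, 53.6 in B2 and 51.2 in E2, and at 0 in the other 5 Cd34-high cells. Fcgr2b, which encodes CD32, was at 16.7 CPM in B1 and at no more than 0.640 CPM in any other Cd34-high cell. In the other BFUE cells Fcgr3 reached 20.5 CPM and Fcgr2b 41.6 CPM, so the highest BFUE cell for Fcgr2b was not a Cd34-high one. Ly6a (Sca-1) was at 45.6 CPM in B2, 50.1 in E3 and 7.25 in B1. Itga2b (CD41) was at 214 CPM in E3 but below 18 CPM in the other 7, and ranged over 0 to 881 CPM in the other BFUE cells. Itgam (CD11b) reached 22.7 CPM, in C1, and Ly6g and Cd3e had 0 reads in BFUE.

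Markers of other blood cells were summed per cell beside these. The 9 stem and multipotent markers, Cd34 among them, added up to 2067 to 4040 CPM in the Cd34-high cells and to 1.98 to 498 CPM in the other BFUE cells. Cd34 alone was at 1036 to 2202 CPM against 0 to 5.16 CPM. The cells were divided on it, so the gap in this sum was set in part by the division. The 7 megakaryocyte markers, with Pf4 at 0 reads, added up to 5.80 to 731 CPM in the Cd34-high cells and to 0.620 to 1441 CPM in the others. The 8 macrophage markers, 6 of them at 0 reads in BFUE, added up to 0 to 42.6 CPM in the Cd34-high cells and to 0 to 60.2 CPM in the others. The 8 genes of erythroid factors and receptors, Gata2 and Nfe2 among them, added up to 137 to 1091 CPM in the Cd34-high cells. They added up to 1307 to 3582 CPM in the other BFUE cells. In E3, which had the highest sum of the Cd34-high cells, Gata2 was at 492 and Nfe2 at 364 CPM. Gata1, Klf1 and Epor were at no more than 66.9, 71.5 and 4.94 CPM in any Cd34-high cell. The part of any other cell type in the levels of the members was not tested.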

How the data were processed

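The values used are whole-number read counts per gene and well, deposited by the authors without normalisation. Reads were aligned with STAR 2.4 to GRCm38 and counted with featureCounts, per the submitters' processing notes; which annotation was used, and how strand and shared reads were handled, is not given in the sources used here. Its names in the first line, which has 1 extra empty cell, were taken in order. For symbols with several identifiers, the one with most reads was used. Of the identifiers, 99.7% are in GENCODE M21, the source of coordinates and exon lengths.

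Wells were kept from 50000 reads and 1000 genes upward. Counts were summed per gate and scaled to CPM, with exact Poisson intervals, and ratios have exact conditional binomial intervals. A gene was measured if either gate reached 10 CPM, and called lower or higher at 1.5-fold or more. A gate at 0 was set at 3 reads over the gate. Ratios were left out if neither gate had over 3 reads. Shares of cells have exact binomial (Clopper-Pearson) intervals. Cells are not replicates, so no test was made. Doublets were not called, as each well was sorted as 1 cell.

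The members, the gene lists, the 100 CPM division on Cd34 and the rule for naming genes (all members, and up to 4 per list by BFUE level) were chosen with earlier results of these data known. Further list genes were named after their values were seen. Ratios and intervals were tested on simulated Poisson counts of genes at 10 CPM or more over CFUE and BFUE together. That check does not cover reads that are not independent, or ratios that rest on few reads. Alternatives were the scalings of DESeq2 1.42.0 (size factors) and edgeR 4.0.16 (TMM), run in R 4.3.3, other filters on cells and genes, other totals, only the upper or only the lower 4 plate rows, a 2-fold limit, single cells left out and thinned counts. Tables and intervals were made with pandas 2.3.3, scipy 1.17.1 and numpy 2.4.6 under Python 3.11.15, and figures with matplotlib 3.10.9. The sum over the lymphoid markers is not reported here.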

Additional observations from a re-analysis of the deposited data

Results flagged for a closer look

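Mpo was read in wells that had been left out for their depth. The well D2 of the BFUE gate held 6 Mpo reads among 12472 reads, beside 8 reads of Cd34 and 0 of Gata1. The well C12 of the CFUE gate held 5 Mpo reads among 14286, beside 6 reads of Cd34 and 3 of Gata1. Both stand above the 3 reads that a count of 0 allows. The well C12 lies in plate row C, which holds the Cd34-high cells of C1 and C2. Mpo was read in 7 of the 8 kept later-gate wells of that row. The part of the shared row in the reads of C12 was not tested. At this depth neither well can be placed with the other cells of its gate.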

How the results depend on the processing

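The counts of members lower in CFUE and in the lower intermediate gate than in BFUE stayed at 7 under both other scalings, the mean of per-cell CPM, both other cell filters, other totals, only the upper or only the lower 4 plate rows, a 2-fold limit and the removal of each member's top cell. No member reached 10 CPM in a later gate, so the filter largely fixed these counts, and they are a description. The share of all genes called was not computed under these settings. With no filter on low genes the counts were 9. At 50 CPM in either gate they were 4, since fewer genes were counted. Without the Cd34-high cells they were 3 in both comparisons, and Csf1r turned to a log2 ratio of 0.76 in the lower intermediate gate, on 4 reads against 2. Between neighbouring later gates no member was counted except with no filter. Then 5 of 6 were lower in the upper than in the lower intermediate gate, and 1 of 5 in CFUE than in the upper one. Csf1r was among the 5 on 3 reads against 4, and Spi1 was only 1.23-fold lower without well G4. The share of all genes called with no filter was not computed, so counts under that setting are a description. Over the alternatives with a value, the log2 ratio of CFUE to BFUE ran from -9.65 to -2.98 for Mpo, from -6.75 to -3.52 for Spi1 and from -6.44 to -3.74 for Prtn3, the highest being without the Cd34-high cells. The count of members with 90% or more of their BFUE CPM in the Cd34-high cells was 5 to 7. No paired analysis was possible, because the labels do not say which embryos the cells came from. With 1 sample per gate and 8 Cd34-high cells, differences between cells are known only for these cells, and a gene at 0 reads in a cell may have been missed.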

Other observations

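The Cd34-high cells also differed in genes of other blood lineages. Flt3, a receptor of multipotent and lymphoid progenitors, was at 41.4 to 1449 CPM in the 8 cells and at no more than 3.72 CPM in the other BFUE cells. Il7r, the receptor of interleukin 7, was at 338 CPM in F1, 266 in B1, 220 in C1 and 31.6 in B2, and at 0 in the other 4. Rag2, of antigen receptor recombination, was at 375 CPM in B1, 262 in C1 and 85.9 in F1. The F1 cell thus held the most Mpo and the most Il7r. The cell of E3, with Mpo at 1918 CPM, held Gata2 at 492 CPM, the mast cell protease gene Cpa3 at 243 CPM and Itga2b at 214 CPM. Of 8 macrophage markers 6, and of 7 eosinophil and basophil markers 6, had 0 reads in BFUE, C1qa, Epx and Mcpt8 among them.

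Over the 8 cells, the genes whose log2(CPM + 10) went most closely with the summed CPM of the 4 granule genes were E2f4 (Pearson's r 0.93), Lman2l (0.92), Tdg (0.90), Thoc2 (0.90), Psmg1 (0.89) and Atp5c1 (0.88), the highest of 4311 genes ranked on only 8 points. The granule sum was mainly Mpo, whose own r with it was 0.997, against 0.32 for Prtn3.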
